A study of Homo sapiens with 2 samples.

Results

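The insulin-like growth factor (IGF) system was followed as 10 genes chosen by function, with earlier results of these data known. They were the ligands IGF1 and IGF2, the receptors IGF1R and IGF2R, and the binding proteins IGFBP1 to IGFBP6. All 10 were among the 17397 genes measured by RNA-Seq in 2 libraries, of which 1 was wild type (WT) and 1 was MEIS2-/-. The cells came from H1, a human embryonic stem cell line in wide use, and both genotypes were taken at day 4 of hematopoietic differentiation after the same factors, 50 ng/ml activin A with 40 ng/ml BMP4 for 2 days and 40 ng/ml VEGF with 50 ng/ml bFGF for the next 2 days. The MEIS2-/- line was derived from single cells of a culture that carried Cas9 and a MEIS2 guide on a lentivirus under puromycin selection, so it descends from 1 clone, and the labels do not say which clone was sequenced or whether the WT cells had carried a vector. As each genotype had a single library, differences could not be checked against replicates, no test between the genotypes was possible, and every value below describes these libraries only.

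IGF1 and IGF2 are small secreted growth factors that act through IGF1R, a receptor tyrosine kinase related to the insulin receptor, which feeds the PI3K, AKT and mTOR pathway and the RAS and MAP kinase pathway. IGF2R, also known as the cation-independent mannose-6-phosphate receptor, has no kinase and carries IGF2 to the lysosome. The binding proteins hold most secreted IGF outside cells, and proteases release it from them. IGF2 is the main IGF of the embryo, is imprinted and is normally transcribed from the paternal allele, and yolk sac, placenta and fetal liver are known sources of it.

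Expression was deposited as FPKM, a level scaled to transcript length and to the total of mapped fragments, so that genes can be compared within a library. The log2 fold change is log2 of MEIS2-/- over WT after 0.1 FPKM was added to each value, and it was computed for the 13075 genes that reached 1 FPKM in either library, whose median was 0.12. MEIS2 mRNA, the edited gene, was listed at 10.85 FPKM in the WT library and 3.44 FPKM in the MEIS2-/- library, for a log2 fold change of -1.63. FPKM values do not show how much protein or RNA was lost by editing, and in bulk RNA fewer cells of a type cannot be told apart from less RNA per cell.

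The IGF system did not move as a block. Of the 10 genes, 9 passed the filter of 1 FPKM, and each of these 9 was above 1 FPKM in both libraries. IGF2, IGFBP2 and IGFBP4, the 3 most abundant members in WT cells, were lower in the MEIS2-/- library by at least 2-fold. IGF1, IGFBP3 and IGFBP5, all below 10 FPKM in WT cells, were at least 2-fold higher. IGFBP6, IGF1R and IGF2R changed by less than 2-fold. Thus 3 of 9 members (33.3%) were lower and 3 of 9 (33.3%) higher by that size, beside 7.97% lower and 7.84% higher among all genes compared. Because earlier results of these data were known when the members were chosen, the larger shares are no independent support. The median log2 fold change of the 9 was 0.42, which averages over opposite directions and describes none of the groups.

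**Figure D1:**
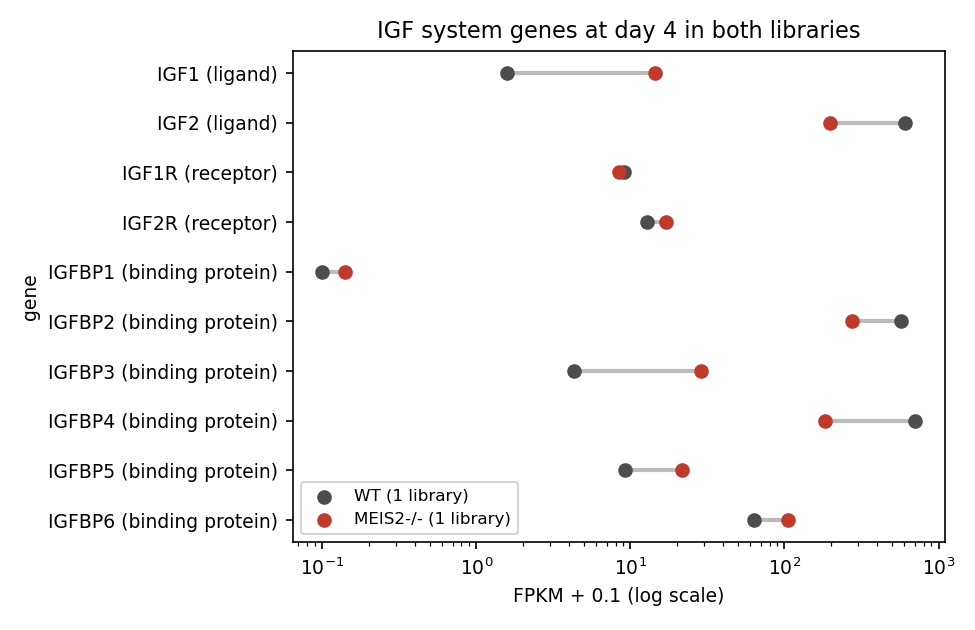
The horizontal axis is FPKM plus 0.1 on a log scale, and each row is 1 gene with its role, the grey point being the WT library and the red point the MEIS2-/- library. IGF2, IGFBP2 and IGFBP4 lie to the far right and lie lower in MEIS2-/- cells, while IGF1, IGFBP3 and IGFBP5 start below 10 FPKM and lie higher.

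The region upstream of the transcription start is shown for 4 members that changed at least 2-fold, because the cells differ in a DNA-binding factor and because these members moved in opposite directions. Each window holds the 250 bases before a RefSeq start on GRCh38.p14, written in the direction of transcription. Capitals mark either TGACAG, the core letters bound by MEIS proteins, or ACGTG and GCGTG, the core letters of the hypoxia response element, on either strand.
IGF1, chr12:102481748-102481997, minus strand: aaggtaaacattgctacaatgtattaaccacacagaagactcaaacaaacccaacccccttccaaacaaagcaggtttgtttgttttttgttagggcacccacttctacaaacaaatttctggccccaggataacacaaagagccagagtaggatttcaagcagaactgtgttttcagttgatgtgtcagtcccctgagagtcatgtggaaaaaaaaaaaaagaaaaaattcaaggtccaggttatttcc
IGFBP3, chr7:45921273-45921522, minus strand: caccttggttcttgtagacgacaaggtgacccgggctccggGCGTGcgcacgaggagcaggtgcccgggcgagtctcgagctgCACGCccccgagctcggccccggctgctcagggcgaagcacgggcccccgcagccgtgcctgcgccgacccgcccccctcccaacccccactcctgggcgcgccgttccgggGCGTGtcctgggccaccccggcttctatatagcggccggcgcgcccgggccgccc
IGFBP4, chr17:40443200-40443449, plus strand: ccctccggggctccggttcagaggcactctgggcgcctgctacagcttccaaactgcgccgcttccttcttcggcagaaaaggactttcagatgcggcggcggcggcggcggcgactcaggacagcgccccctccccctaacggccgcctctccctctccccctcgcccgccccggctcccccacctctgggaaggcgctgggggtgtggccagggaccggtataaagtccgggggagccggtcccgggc
IGFBP2, most upstream start, chr2:216632578-216632827, plus strand: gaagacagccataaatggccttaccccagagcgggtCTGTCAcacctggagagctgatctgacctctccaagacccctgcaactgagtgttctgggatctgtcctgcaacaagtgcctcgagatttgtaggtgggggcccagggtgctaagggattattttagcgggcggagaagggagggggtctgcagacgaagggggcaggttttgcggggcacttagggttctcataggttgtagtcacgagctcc
Of the 10 members, 8 had a promoter window, 11 windows in all because IGFBP2 has 3 starts and IGF1 has 2. IGF2, the main ligand here, and IGFBP1 had none, so the letters counted below do not cover them. The IGFBP3 window held 3 copies of GCGTG and none of TGACAG, and the IGFBP4 window and the IGF1 window shown held none of the letters searched. Of the 3 IGFBP2 windows only the one shown held TGACAG, as 1 copy on the opposite strand. Which IGFBP2 start these cells used is not known. The window of IGFBP5, which also changed at least 2-fold, is not shown and held none of the letters searched. In all, TGACAG was found in 2 of the 11 windows, the IGFBP2 window shown and that of IGF2R. Of 35116 windows of the same length across the genome, 13.0% hold it. ACGTG or GCGTG was found in 4 of the 11 windows, beside 43.2% of all windows. They were those of IGF1R, IGF2R and IGFBP3 and another IGFBP2 window, which is not shown and holds no TGACAG. In the IGF2R window the TGACAG match shares 2 bases with an ACGTG match. These matches describe letters in a window and not bound sites.

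Of the ligands, IGF2 was by far the more abundant in both libraries. IGF2 mRNA was at 603.05 FPKM in the WT library and 198.42 FPKM in the MEIS2-/- library, so that 32.9% of the WT level was left and the log2 fold change was -1.60. It ranked 102 by level among the 17397 genes in WT cells and 316 in MEIS2-/- cells. By the FPKM lost it ranked 18 of all genes listed. IGF1 mRNA, the ligand that growth hormone induces in the liver after birth, was at 1.47 FPKM in the WT library and 14.24 FPKM in the MEIS2-/- library. This was a 9.69-fold higher level and a log2 fold change of 3.19, the 41st largest increase among the 13075 genes. The level ratio of IGF2 to IGF1 was 410 in WT cells and 13.9 in MEIS2-/- cells. Because IGF1 started so low, the ligands together still went from 604.52 to 212.66 FPKM, 35.2% of the WT sum.

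The IGF2 value has limits from overlapping gene records. The readthrough gene INS-IGF2 shares exons with IGF2 on the same strand, and it was listed at 0 FPKM in the WT library and 0.28 FPKM in the MEIS2-/- library, so the split of reads between these gene records is uncertain. The annotated gene AC132217.1 on the same strand and the antisense gene IGF2-AS also share exons with IGF2 and were not analysed here, and the library kit as labelled is not stated to keep strand. Likewise IGF1 and IGFBP5 share exons with the antisense genes HELLPAR and AC007563.2, which were not analysed here. INS, the insulin gene beside IGF2, and H19, the imprinted partner of IGF2, were not analysed here. CDKN1C, an imprinted growth inhibitor of the same chromosome region that is expressed from the maternal allele, was at 141.90 FPKM in the WT library and 181.29 FPKM in the MEIS2-/- library, for a log2 fold change of 0.35.

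Neither receptor changed by 2-fold. IGF1R was at 8.93 FPKM in the WT library and 8.34 FPKM in the MEIS2-/- library, for a log2 fold change of -0.10. IGF2R was at 12.62 and 16.90 FPKM, with a log2 fold change of 0.42. INSR, the insulin receptor, which can also bind IGF2, was at 3.22 and 3.07 FPKM, and the level ratio of IGF1R to INSR was 2.77 in WT cells and 2.72 in MEIS2-/- cells. M6PR, the smaller mannose-6-phosphate receptor, which does not bind IGF2, was at 33.67 and 33.18 FPKM. The receptor levels thus lay far below that of IGF2 mRNA in both libraries, and how similar they are cannot be judged further without replicates.

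Among the binding proteins, IGFBP4 had the largest decrease. IGFBP4, which mostly restrains IGF and is cut by the protease PAPPA, was at 703.06 FPKM in the WT library and 184.09 FPKM in the MEIS2-/- library. Its log2 fold change was -1.93, and 26.2% of the WT level was left. It was the highest member in WT cells, rank 92 of all genes, and by the FPKM lost it ranked 12 of the 17397. IGFBP2, a binding protein of fetal tissues with an integrin-binding RGD site, was at 574.22 and 273.29 FPKM. Its log2 fold change of -1.07 lay just past the 2-fold size, and it was the highest member in MEIS2-/- cells. After the change IGFBP2 exceeded IGFBP4, the level ratio of IGFBP4 to IGFBP2 being 1.22 in WT cells and 0.67 in MEIS2-/- cells.

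IGFBP3, the main IGF carrier of adult serum, went the other way. It was at 4.22 FPKM in the WT library and 28.54 FPKM in the MEIS2-/- library, 6.76-fold higher, with a log2 fold change of 2.73 and rank 80 among increases. IGFBP5, which resembles IGFBP3 and binds the extracellular matrix, was at 9.14 and 21.51 FPKM, a log2 fold change of 1.23. IGFBP6, which prefers IGF2 over IGF1, was at 63.12 and 105.00 FPKM. Its log2 fold change of 0.73 lay below the 2-fold size, but in FPKM it gained the most of the 10 members, 41.88. IGFBP1, a binding protein of liver and decidua, was listed at 0 FPKM in the WT library and 0.04 FPKM in the MEIS2-/- library, below the filter, and no fold is given for it.

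**Figure D2:**
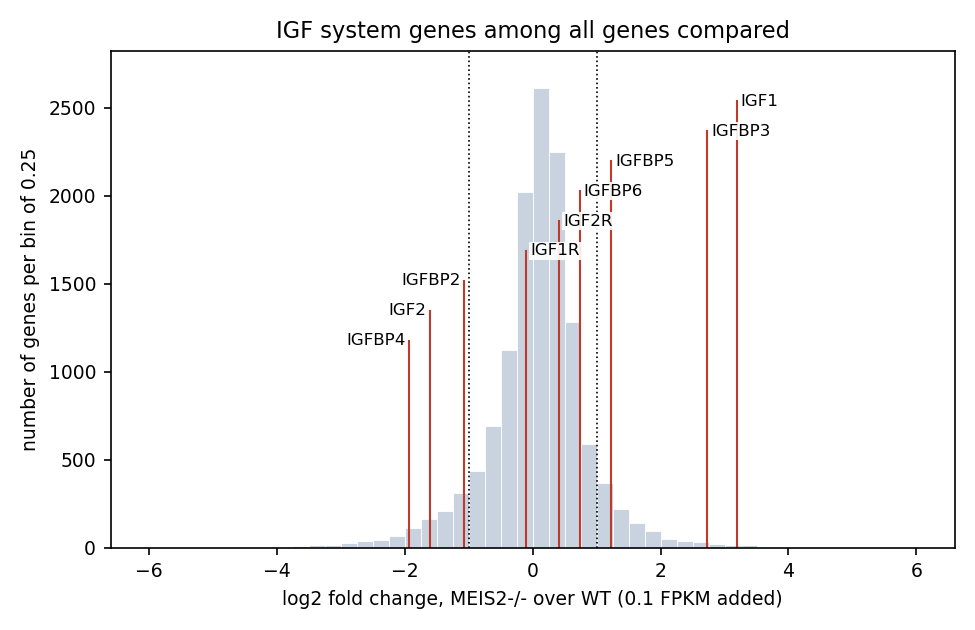
The grey bars count the 13075 genes compared in bins of 0.25 of the log2 fold change, MEIS2-/- over WT, and the red lines mark the 9 members that passed the filter at heights chosen only to separate the names. Dotted lines mark a 2-fold difference, and 3 members lie beyond each of them, from IGFBP4 at -1.93 to IGF1 at 3.19.

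The makeup of the binding protein mRNA pool differed as well as its size. The FPKM of IGFBP1 to IGFBP6 came to 1353.76 in the WT library and to 612.47 in the MEIS2-/- library, 2.21-fold lower. Without IGFBP4, the highest member of that sum, the others went from 650.70 to 428.38 FPKM, a log2 ratio of -0.60 in place of -1.14, so the 2-fold size of the decrease rests on IGFBP4. In WT cells IGFBP4 made up 51.9% of the sum, IGFBP2 42.4%, IGFBP6 4.66%, IGFBP5 0.675% and IGFBP3 0.312%. In MEIS2-/- cells the shares were 30.1% for IGFBP4, 44.6% for IGFBP2, 17.1% for IGFBP6, 3.51% for IGFBP5 and 4.66% for IGFBP3. The share of IGFBP2 was thus nearly kept, and what IGFBP4 lost in share went mostly to IGFBP6, IGFBP3 and IGFBP5. Summed binding protein mRNA exceeded summed ligand mRNA 2.24-fold in WT cells and 2.88-fold in MEIS2-/- cells.

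**Figure D3:**
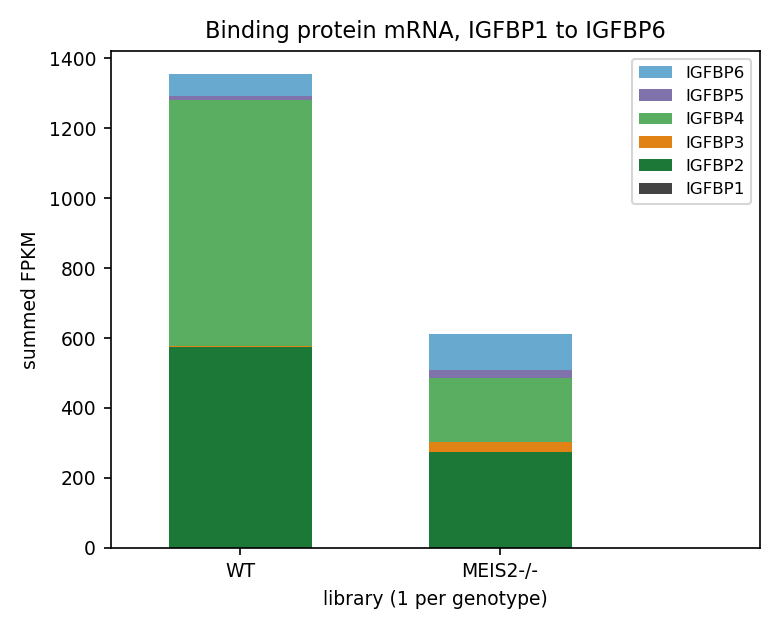
Each bar is 1 library, its height is the summed FPKM of IGFBP1 to IGFBP6, and the colours are the genes in stacking order from IGFBP1 at the bottom. The bar is 1353.76 FPKM high in WT cells and 612.47 in MEIS2-/- cells, and the pale green part, IGFBP4, shrinks from 703.06 to 184.09 FPKM.

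IGFBP2 and IGFBP5 lie next to each other on chromosome 2 with no other RefSeq gene lying wholly between them. IGFBP2 kept 47.6% of its WT level while IGFBP5 was 2.35-fold higher, so that their level ratio went from 62.8 to 12.7. IGFBP1 and IGFBP3 are neighbours in the same way on chromosome 7, and IGFBP3 was 6.76-fold higher while IGFBP1 stayed at or near 0 in both libraries. The other members lie apart, IGF2 on chromosome 11, IGF1 and IGFBP6 on chromosome 12, IGF1R on chromosome 15, IGFBP4 on chromosome 17 and IGF2R on chromosome 6.

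The rest of the pathway was read from 64 further genes listed by role, of which 62 were in the tables and 55 passed the filter. Of the 55, 4 (7.27%) were at least 2-fold lower and 3 (5.45%) at least 2-fold higher, near the 7.97% and 7.84% of all genes, with a median log2 fold change of 0.19 beside 0.12 for all genes. Of these 7 genes, 5 were among the 6 compared genes of 1 group, the binding protein relatives, proteases and carriers that act outside the cell. STC1 and STC2, the stanniocalcins, which inhibit PAPPA, were at 17.03 and 17.75 FPKM in WT cells and at 2.59 and 3.18 FPKM in MEIS2-/- cells, with log2 fold changes of -2.67 and -2.44. HTRA1, a secreted protease that can cut binding proteins, was at 56.21 and 17.16 FPKM, a log2 fold change of -1.71. HTRA3, the only compared gene of this group not past 2-fold, was at 12.28 and 11.68 FPKM, a log2 fold change of -0.07. PAPPA itself was below the filter, at 0.69 FPKM in the WT library and 0.65 FPKM in the MEIS2-/- library.

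The binding protein relatives were higher instead. IGFBP7, which binds IGF only weakly, was at 12.38 FPKM in the WT library and 46.50 FPKM in the MEIS2-/- library, for a log2 fold change of 1.90. IGFBPL1, a relative with the same type of amino-terminal domain, was at 9.59 and 29.17 FPKM, with 1.59. The other 2 genes past 2-fold were INSRR, an insulin receptor relative that senses alkaline pH, at 3.11 and 0.26 FPKM, and IRS4, a receptor adaptor, at 0.37 and 1.07 FPKM. Each passed the filter through 1 library only.

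Inside the cell, no gene of the PI3K and AKT group (14 compared), the mTOR group (10), the FOXO group (3) or the group of IGF2 neighbours and regulators (9) reached 2-fold in either direction on the log2 scale with 0.1 FPKM added. The largest value in the PI3K and AKT group was 0.99, for PIK3R1, the p85 alpha regulatory subunit, at 2.43 FPKM in the WT library and 4.91 FPKM in the MEIS2-/- library, just short of the 2-fold size on that scale. The ratio of its deposited FPKM was 2.02, and with a pseudocount of 0.01 FPKM 4 of the other pathway genes were at least 2-fold higher in place of 3. IRS2, a main docking protein of the IGF and insulin receptors, was at 9.61 and 4.98 FPKM, a log2 fold change of -0.93. Among the decreases short of 2-fold it was the nearest to that size. Under either rescaling given at the end, 5 of the other pathway genes were at least 2-fold lower in place of 4. The RNA-binding proteins IGF2BP1, IGF2BP2 and IGF2BP3, which bind IGF2 mRNA among others, had log2 fold changes of 0.06, 0.11 and 0.52, and HMGA2 and PLAG1, which can drive IGF2 transcription, had 0.09 and -0.41. PLAGL1, an imprinted relative of PLAG1, had the largest change of the group of IGF2 neighbours and regulators, from 8.07 FPKM in the WT library to 4.41 FPKM in the MEIS2-/- library, a log2 fold change of -0.86.

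**Figure D4:**
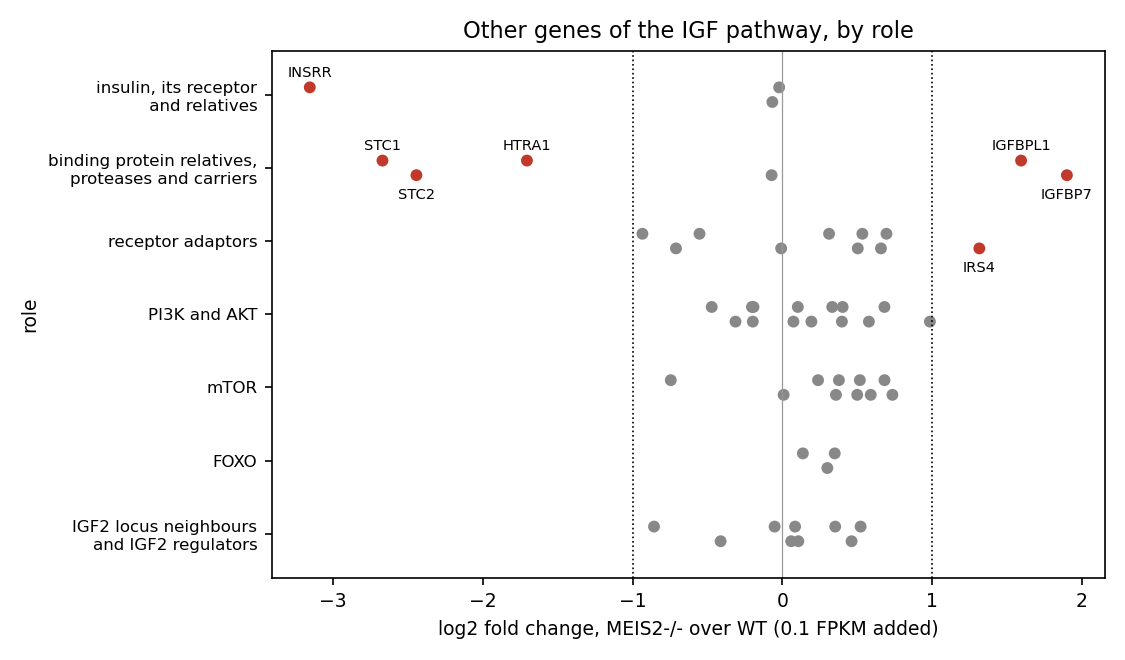
The horizontal axis is the log2 fold change, MEIS2-/- over WT, and each point is 1 of the 55 other pathway genes compared, placed by role, with small vertical shifts only to separate points. The 7 genes past the dotted 2-fold lines are red and named, and 5 of them lie in the row of binding protein relatives, proteases and carriers.

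Several lists of cell type and response genes differed between the same libraries, and their part in the IGF values was not tested. The lists were chosen with earlier results of these data known, so their counts are no independent findings. Among all genes compared, 7.84% were at least 2-fold higher and 7.97% at least 2-fold lower. Higher in MEIS2-/- cells by at least 2-fold were 14 of 20 compared genes of visceral endoderm and liver. Their list had summed FPKM of 788.10 in WT cells and 1536.51 in MEIS2-/- cells. Of these 14, 8 were below 1 FPKM in the WT library and so entered the comparison only through the library where they were higher. The largest changes of this list were those of FGB, from 2.16 to 45.66 FPKM, and TTR, from 0.38 to 5.31 FPKM. ALB, the defining gene of mature hepatocytes, was near 0 at 0.03 and 0.11 FPKM. Of the 20 genes, 18 had a log2 fold change above 0, among them FOXA2 at 0.19. It was below 0 for 2, GATA4 at -0.13 and GATA6 at -0.39. Likewise 6 of 9 trophoblast and amnion genes were higher, 2 of them from below 1 FPKM in the WT library. Their summed FPKM was 441.46 and 473.71, and without HAND1, the most abundant of them, 83.93 and 208.47. KRT7 had the largest change, from 0.51 to 16.68 FPKM, TFAP2B and ELF5 were listed at 0 in WT cells and CGA at 0 in MEIS2-/- cells. The log2 fold change was above 0 for 8 of the 9, among them GATA3 at 0.01, and below 0 for HAND1 at -0.43. Of 10 pluripotency genes, 6 were higher, with sums of 667.56 and 2003.08 FPKM, but without POU5F1, the most abundant of them, the sums were 381.91 and 548.94 FPKM, 1.44-fold higher in place of 3.00-fold. SOX2 was near 0 in both libraries at 0.09 and 0.15 FPKM. Of the 10 pluripotency genes, 8 had a log2 fold change above 0. It was below 0 for 2, DNMT3B at -0.76 and TERF1 at -0.04.

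Lower by at least 2-fold in MEIS2-/- cells were 22 of 25 genes of the response to low oxygen, beside 7.97% of all genes compared. Their list had summed FPKM of 9021.91 in WT cells and 3211.01 in MEIS2-/- cells. ANKRD37, a target of hypoxia-inducible factors, went from 33.68 to 0.76 FPKM. Also lower were 11 of 16 endothelium genes, 7 of 10 hematopoiesis genes and 7 of 15 mesenchyme genes, with sums of 1087.85 and 500.79 FPKM, 251.88 and 96.89 FPKM, and 5106.98 and 2739.98 FPKM. Without VIM, the most abundant mesenchyme gene, that last sum went from 2058.70 to 1725.73 FPKM, 1.19-fold lower in place of 1.86-fold, and without SOX17 the endothelium sum went from 946.84 to 236.76 FPKM. Of the genes lower in these lists, 2 of the mesenchyme list and 1 of the low oxygen list were below 1 FPKM in the MEIS2-/- library. SOX17 stands in both the endothelium list and the visceral endoderm list. It was the only 1 of the 16 endothelium genes with a log2 fold change above 0, at 0.90. Its level was 141.01 FPKM in the WT library and 264.03 FPKM in the MEIS2-/- library. Of the 15 mesenchyme genes, 3 were above 0, FN1 at 0.41, POSTN at 0.91 and COL3A1 at 0.10. Of the 25 low oxygen genes, 1 was above 0, ADM at 0.50, and none of the 10 hematopoiesis genes was. Of the endothelium list, KDR was at 323.77 FPKM in the WT library and 61.98 FPKM in the MEIS2-/- library. PECAM1 was low in both, at 1.53 and 0.93 FPKM, and these levels do not measure endothelium content.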

How the data were processed

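RNA was extracted with Trizol from 1 WT and 1 MEIS2-/- culture, prepared with an Illumina TruSeq kit and sequenced by BGI. The authors deposited FPKM values, 1 per NCBI Gene number and library, rounded to 2 decimals. The submitters' processing notes name BWA, Bowtie, RSEM and hg19, and roles and versions are not given in the sources used here. Low values showed no steps of whole reads (agreement 0.101 in WT and 0.105 in MEIS2-/-, where 1 is complete), so depth is unknown and no interval is given.

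Gene numbers were matched to symbols for 17365 of 17397 genes with the RefSeq table of GRCh38.p14, the source of the promoter sequences and gene order. The files hold no coordinates. Overlapping exons came from GENCODE 29. A pseudocount of 0.1 FPKM, a filter of 1 FPKM in either library and a size of 2-fold were used, with no rescaling and no test. Members, lists and named genes were chosen with earlier results of these data known. Named were all members, other pathway genes past 2-fold, INSR, M6PR, INS-IGF2 and up to 3 genes of each marker list, and other genes and the motifs were added after values were seen. Alternatives were other pseudocounts, filters, scalings and fold sizes. The counting was tested on simulated data. Python 3.11.15, numpy 2.4.6, pandas 2.3.3 and matplotlib 3.10.9 were used.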

Additional observations from a re-analysis of the deposited data

How the results depend on the processing

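All 36 alternative values of the 9 members, under pseudocounts of 1 and 0.01 FPKM and both rescalings, kept their direction and their side of the 2-fold size. Setting the median log2 ratio to 0, over genes that reached 5 FPKM in each library, lowered every log2 fold change by about 0.12, and scaling by the trimmed mean of log ratios by 0.10. IGFBP2 ran from -1.19 to -1.07 and IGFBP5 from 1.11 to 1.23, the members nearest to 2-fold, and IGF1 from 2.63 to 3.27. At 4-fold, without rescaling, the count of lower members was 0 in place of 3. IGFBP4, however, was at -2.05 with the median set to 0 and at -2.04 with the trimmed mean, past 4-fold. Among the other pathway genes, 8 were lower and 10 higher at 1.5-fold, and 0 were higher at 4-fold. Without IGFBP4 the log2 ratio of the summed binding proteins was -0.60. Sums over the marker lists were also taken without the most abundant gene of each, a choice made after seeing the data, and each of the 7 kept its direction. Over all genes, 693 were lower and 623 higher with a pseudocount of 1 FPKM, 1567 higher without a filter, and 598 lower and 554 higher with a filter at 5 FPKM. Without rescaling 1042 genes were lower and 1025 higher. Setting the median log2 ratio to 0 gave 1197 lower and 833 higher, and the trimmed mean gave 1179 and 853. At 1.5-fold there were 1890 lower and 2353 higher genes, and at 4-fold 241 and 194. A larger fold size or a stricter filter gives fewer genes by construction. With 1 library per genotype and unknown depth, neither the spread between cultures nor counting error is known. No paired analysis was possible because each genotype has 1 library.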
